A study of Mus musculus with 20 samples.

Results

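The thin filament genes of the mouse heart were described here through 7 genes: the troponin T genes Tnnt2 (cardiac) and Tnnt1 (slow skeletal), the troponin I genes Tnni3 (cardiac) and Tnni1 (slow skeletal), the troponin C gene Tnnc1, the tropomyosin gene Tpm1 and the cardiac alpha-actin gene Actc1. Each probe set of the array whose only symbol in the platform annotation was one of these 7 was taken, which gave 9 of 12488 probe sets for 7 of 8251 named genes, with 2 each for Tnnt1 and Actc1, told apart here by the suffix of their names (at and s_at, i_at and f_at). The series measured polyadenylated RNA of whole hearts from 20 male mice with 1 oligonucleotide array per animal. All were crosses of C57BL/6 (B6) and C3H mice, labelled as F1 hybrids except for old controls 1 and 4, whose label says hybrid without F1. The 4 groups held 5 animals each. One group of 30-month-old mice ate a diet with 500 mg/kg alpha-tocopherol and 500 mg/kg gamma-tocopherol, and a second ate 1000 mg/kg alpha-tocopherol, both from the age of 15 months. Old controls of 30 months and young controls of 5 months ate the control diet. The tocopherols are forms of vitamin E, and alpha-tocopherol carries 1 more methyl group on its ring than gamma-tocopherol. The comparisons asked how transcripts differ with age and with each supplement in old mice.

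In each heartbeat calcium binds troponin C, troponin I then lets go of actin, and troponin T passes this movement to tropomyosin, which rolls off the myosin binding sites of the actin filament. Slow skeletal troponin I is the form of the fetal and newborn heart, and cardiac troponin I replaces it after birth. Slow skeletal troponin T belongs mainly to slow skeletal muscle, while cardiac troponin T is the form that the adult heart muscle uses.

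The bases just before the annotated starts of 4 of these genes are shown because Tnnt1, Tnnt2 and Tnni3 carry the called changes in troponins, and Actc1 gives a muscle promoter with a different motif. They are from RefSeq on the mouse build GRCm38.p6, 150 bases each, written 5′ to 3′ on the gene's strand. Capitals mark a motif that a search found. The Tnnt1 stretch lies at chr7:4515976-4516125 on the minus strand and holds a TATA box (TATAAA) at -30 to -25 from the start. The Tnnt2 stretch, the first of 2 annotated starts, lies at chr1:135836184-135836333 on the plus strand and holds an M-CAT motif (CATTCC) at -27 to -22. The Tnni3 stretch lies at chr7:4522529-4522678 on the minus strand with none of the motifs searched. It falls inside the full annotated span of the gene, 4518305 to 4522718, so it is not sequence upstream of that span. The Tnnt2 stretch also runs a short way past the start of its gene span at 135836315. The Actc1 stretch lies at chr2:114052876-114053025 on the minus strand and holds a CArG box at -47 to -38.
Tnnt1: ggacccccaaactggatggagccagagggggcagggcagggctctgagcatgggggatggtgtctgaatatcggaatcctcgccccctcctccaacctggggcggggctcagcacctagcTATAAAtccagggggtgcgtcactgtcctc
Tnnt2: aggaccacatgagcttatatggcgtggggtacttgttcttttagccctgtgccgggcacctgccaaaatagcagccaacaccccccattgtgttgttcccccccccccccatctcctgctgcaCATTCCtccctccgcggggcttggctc
Tnni3: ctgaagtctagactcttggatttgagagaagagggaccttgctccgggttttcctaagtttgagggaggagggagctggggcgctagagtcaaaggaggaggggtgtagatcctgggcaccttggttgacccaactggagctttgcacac
Actc1: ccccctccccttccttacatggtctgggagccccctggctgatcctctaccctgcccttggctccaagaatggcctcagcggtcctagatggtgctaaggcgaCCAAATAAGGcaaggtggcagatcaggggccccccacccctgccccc
The search covered these 3 motifs on both strands. Among windows of the same length before the starts of 27025 mouse genes, 8.08% of genes held a TATA box, 7.64% held an M-CAT motif and 0.88% held a CArG box. In the annotation Tnnt1 and Tnni3 are direct neighbours on chromosome 7, with 0 genes between them, and on chromosome 1 only Lad1 lies between Tnni1 and Tnnt2.

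The tissue label was checked against heart muscle markers: 13 of the 15 listed markers were on the array, and all 13 passed the filter on dim probe sets. Array correlations over all tested probe sets ran from 0.864 to 0.975. The alpha-tocopherol arrays stood apart in measures outside the genes. Their added hybridization controls had mean log2 intensities of 13.32 to 13.78, against 12.55 to 12.92 in old controls, and their 18S ribosomal RNA lay at 12.21 to 12.74, against 10.16 to 11.23. Old control 3 had a difference between the 3′ and 5′ ends of Gapdh of 1.21 (log2), a measure used for RNA quality, while the median of its group was -0.12. Its difference between the ends of beta-actin was 0.23, within the 0.08 to 0.29 of its group, so the 2 measures did not agree on this array.

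The values below are intensities as deposited, given in the order of replicates 1 to 5. Differences are of log2(intensity + 58) ± standard error between groups of 5 animals, with adjusted p-values from limma and Benjamini-Hochberg over the 7453 probe sets that passed the filter, and a probe set was called below 0.05. All 9 probe sets of the 7 genes passed. Probes differ in how well they bind, so levels were compared within a probe set only, apart from percentiles given for Tpm1. In whole hearts, fewer cells of a type and less RNA per cell cannot be told apart.

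**Figure D1:**
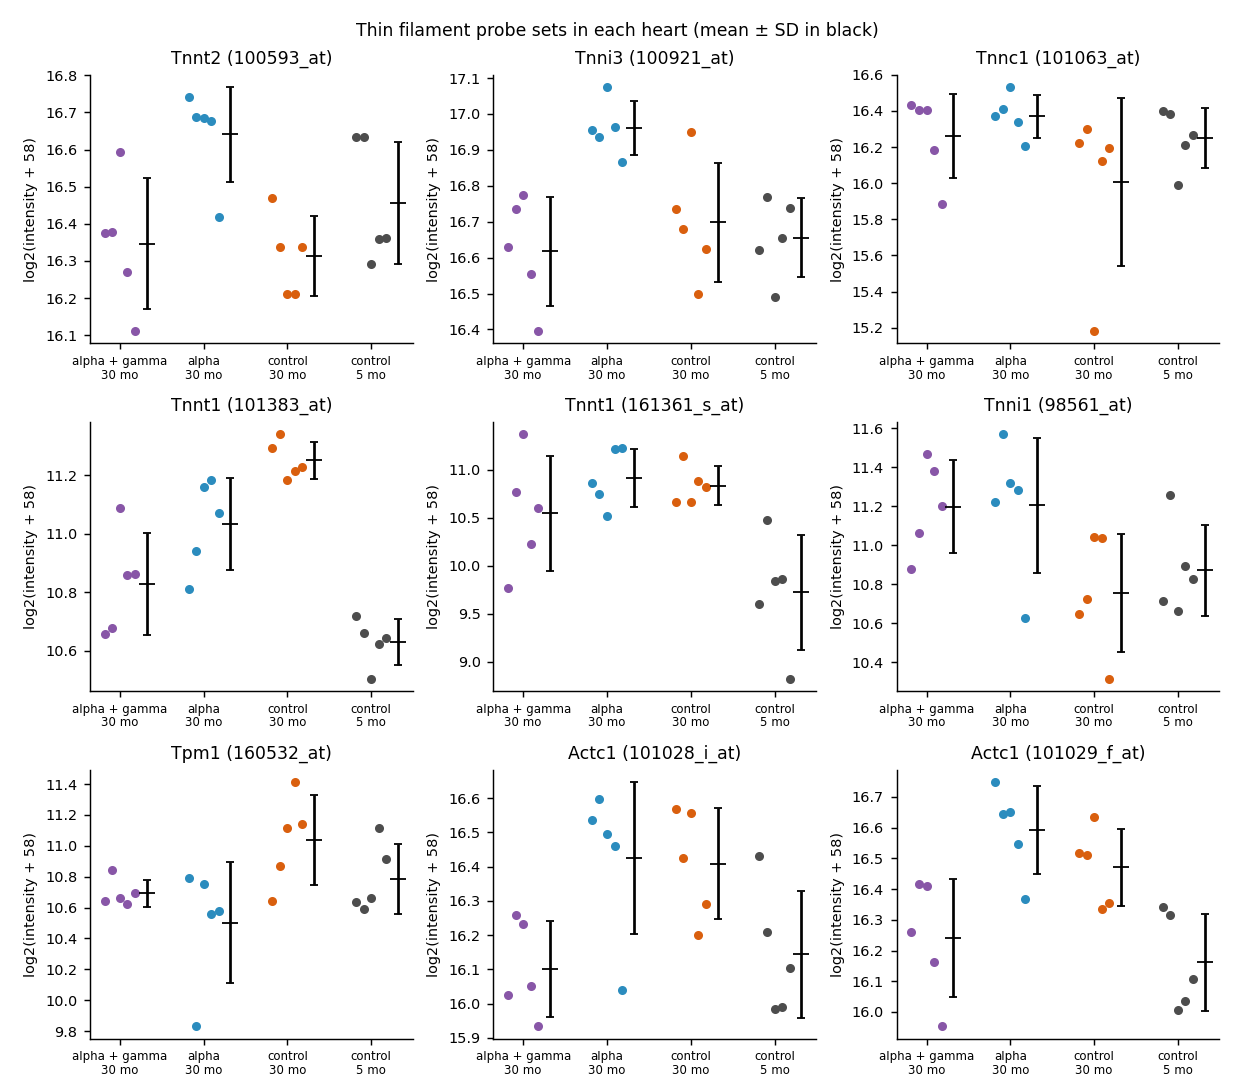
The 9 probe sets as log2(intensity + 58), 1 panel each with its own axis; coloured points are single animals by group and black marks the group mean ± SD (n = 5). Both Tnnt1 probe sets had all 5 old controls above all 5 young controls, and for Tnnt1 (at) the alpha- plus gamma-tocopherol animals lay below every old control.

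With age, slow skeletal troponin T was the only one of the 7 genes whose transcript passed the test. Tnnt1 rose in old control hearts on both of its probe sets, which made 2 of 9 probe sets called, against 4.94% of all tested probe sets (2.74% higher and 2.2% lower). On Tnnt1 (at) the old controls had 2448, 2533, 2266, 2318 and 2343, against 1627, 1562, 1394, 1519 and 1542 in young controls. Every old heart lay above every young heart, and both groups were tight. The difference was 0.62 ± 0.10, or 1.54-fold (95% interval 0.41 to 0.84 in log2, adjusted p = 0.00086, limma).

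The other Tnnt1 probe set, Tnnt1 (s_at), had intensities of 1562, 2213, 1564, 1828 and 1754 in old controls, against 721, 1364, 859, 876 and 394 in young controls. The groups again did not overlap, though the young values were widely spread. Its difference was 1.11 ± 0.26, or 2.16-fold (95% interval 0.57 to 1.66, adjusted p = 0.013, limma). Without old controls 1 and 4, the animals labelled without F1, it was 1.16 with adjusted p = 0.061, and the first probe set still passed at 0.62 (adjusted p = 0.012). Groups without overlap were found for 7.02% of all tested probe sets in this comparison. The suffix s_at marks a probe set whose probes can match more than 1 transcript, so the 2 probe sets need not read the same RNAs.

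Slow skeletal troponin T is expressed in other muscle, so other muscle markers are given beside its rise. Of 11 tested skeletal muscle markers 0 were called with age by limma, and their summed intensity was 24552 to 39307 in old controls and 20493 to 31801 in young controls. The list's median difference was -0.03, and skeletal alpha-actin Acta1 on it was 0.96 ± 0.33 (adjusted p = 0.10, limma). The list holds fast or general skeletal muscle genes and no marker particular to slow fibres, so it cannot show whether slow muscle differed. Fast skeletal troponin I (Tnni2) did not pass the filter, with 23 to 71 in old controls and 22 to 70 in young controls, while fast skeletal troponin C (Tnnc2) passed with 48 to 595 in old controls and 130.5 to 658 in young controls. Of 6 tested genes in the atrial list 2 rose with age, Myl4, the atrial light chain, and Myl1, which is best known as a light chain of fast skeletal muscle, and the list's median difference was 0.46, against 0.01 over all tested probe sets. Myl1 had 6256 to 10511 in old controls and 3233 to 5768 in young controls, with no overlap (0.85 ± 0.16, adjusted p = 0.0028, limma). Without Myl1, 1 of 5 atrial genes rose and the median was 0.43. The atrial sum was 107645 to 140009 in old controls and 66405 to 118961 in young controls. With the atrial level as a covariate, a setting chosen after seeing the data, the age difference of Tnnt1 was 0.72 ± 0.13 on Tnnt1 (at) (adjusted p = 0.0034, limma) and 1.77 ± 0.25 on Tnnt1 (s_at) (adjusted p = 0.00030). With Myl1 taken out of that level the values were 0.70 ± 0.12 (adjusted p = 0.0019) and 1.59 ± 0.24 (adjusted p = 0.00040). The atrial level was 13.12 to 13.56 in old controls and 12.56 to 13.37 in young controls, with the highest young value in replicate 5. It was mostly higher in old hearts, so these fits cannot fully separate atrial content from age. The part of atrial content in the Tnnt1 difference was not tested. Markers of other cells also differed with age: 2 of 5 adipocyte markers fell (list median -0.91), with sums of 19788 to 33560.1 in old controls and 44452 to 55855 in young controls, and 3 of 12 endothelial markers rose (median 0.25), with sums of 35711 to 41894 in old controls and 28667 to 37040.1 in young controls. Their part in the Tnnt1 difference was not tested.

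No probe set of the other 6 genes was called with age. Cardiac alpha-actin came closest: on Actc1 (f_at) the old controls had 93756, 93256, 101753, 82606 and 83779, against 82925, 81569.8, 65833, 67093 and 70608 in young controls. Only the highest young value reached into the range of the old hearts. The difference was 0.31 ± 0.10 (adjusted p = 0.076, limma), and 0.26 ± 0.11 (adjusted p = 0.20) on Actc1 (i_at). Under quantile normalization both passed, at 0.41 (adjusted p = 0.00010) and 0.35 (adjusted p = 0.0081). Actc1 (f_at) also passed with array weights (0.30, adjusted p = 0.027, limma), a replicate block (0.31, adjusted p = 0.031) and the hybridization controls in the fit (0.34, adjusted p = 0.020). The suffix f_at marks probes shared within a gene family, so other actin transcripts may add to its signal.

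Cardiac troponin T (Tnnt2) differed by -0.14 ± 0.10 between old and young controls (95% interval -0.34 to 0.05), and cardiac troponin I (Tnni3) by 0.04 ± 0.09 (95% interval -0.14 to 0.22). Neither passed, and both intervals include 0. The fetal troponin I gene Tnni1 differed by -0.12 ± 0.17 (adjusted p = 0.81, limma) and Tpm1 by 0.25 ± 0.17 (adjusted p = 0.48). For the calcium sensor Tnnc1 the difference was -0.25 ± 0.16 (adjusted p = 0.46), and 1 animal set its size: old control 3 had 37079, against 71233 to 80796 in the other old controls. Without old control 3, whose Gapdh ends also differed, it was -0.04.

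**Figure D2:**
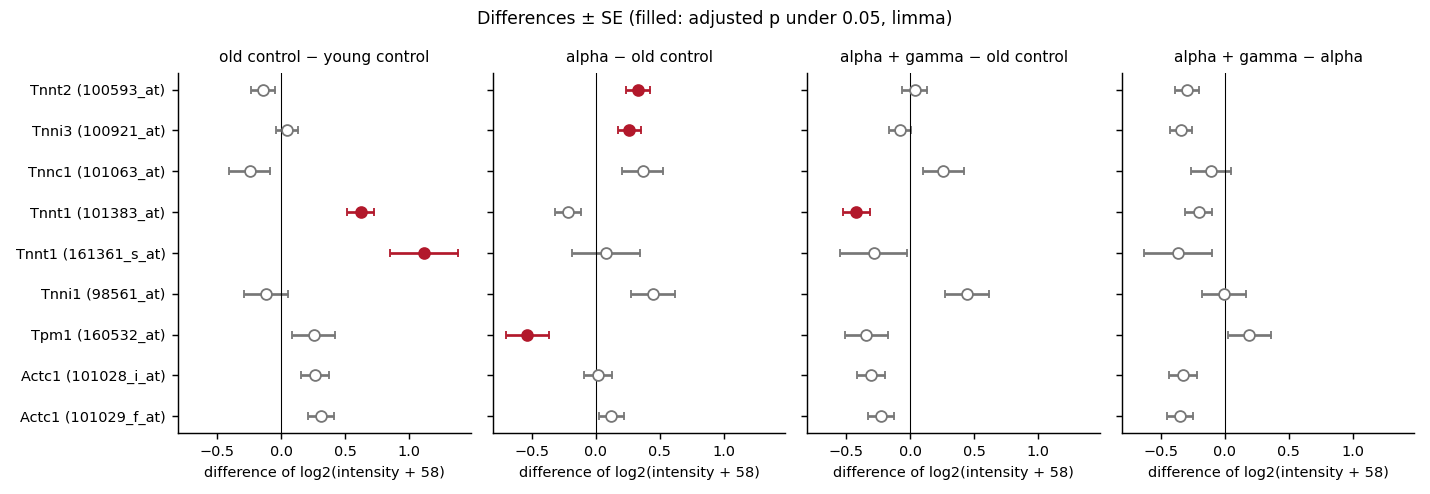
Log2 differences of the 9 probe sets in the 4 comparisons; bars are standard errors and filled points were called by limma after Benjamini-Hochberg adjustment. Tnnt1 was called with age on both probe sets (0.62 and 1.11), Tnnt2, Tnni3 and Tpm1 with alpha-tocopherol (0.33, 0.26 and -0.53), and Tnnt1 (at) with both tocopherols (-0.42).

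In old hearts fed alpha-tocopherol the cardiac forms of troponin T and troponin I rose and Tpm1 fell. These were 3 of 9 probe sets, against 21.7% of all tested probe sets called in this comparison (8.94% higher and 12.8% lower). Whether 3 of 9 differs from that share was not tested, so the count does not set these genes apart from the rest of the array. Cardiac troponin T had intensities of 109497, 105480.0, 105303, 104640.5 and 87444 with alpha-tocopherol, against 90690.3, 82816, 75779, 75779 and 82724 in old controls. Replicate 5 of the supplemented hearts was the only one within the range of the old controls. The difference of Tnnt2 was 0.33 ± 0.10, or 1.26-fold (adjusted p = 0.017, limma).

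Cardiac troponin I, the actin-holding inhibitor, had 126979, 125309.7, 138089, 127854 and 119506 with alpha-tocopherol, against 109034, 104898, 126654, 92585 and 101012 in old controls. Old control 3 lay among the supplemented hearts and the other old controls lay below them all. The difference of Tnni3 was 0.26 ± 0.09 (adjusted p = 0.036, limma). The call was lost on leaving out any 1 of old controls 1, 2, 4 and 5 or of supplemented replicates 1 to 4 (0.21 to 0.27, adjusted p 0.052 to 0.10), and under median centring (0.25, adjusted p = 0.081).

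Tpm1, the coiled rod that covers the myosin binding sites, had 1712, 853, 1670.3, 1453 and 1471 with alpha-tocopherol, against 1544, 1812, 2165, 2672 and 2199.5 in old controls. The lowest old control lay within the supplemented group, and supplemented replicate 2 was far below the rest. The difference was -0.53 ± 0.17, or 1.45-fold lower (adjusted p = 0.026, limma), and -0.37 (adjusted p = 0.076) without supplemented replicate 2. The call was also lost without old control 4 (-0.44, adjusted p = 0.080) and without old control 5 (-0.51, adjusted p = 0.058). Tpm1 has 10 curated transcripts, and the sources used here do not say which of them the probe set reads. The mean of this probe set lay at percentile 74.6 of the array, against about 99.8 or higher for Tnnt2, Tnni3, Tnnc1 and Actc1. Whether it reads the Tpm1 transcripts of the thin filament is not known.

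None of the 9 probe sets separated the alpha-tocopherol group from the old controls without overlap, which 16.2% of all tested probe sets did. All 3 calls were lost when an array measure that set this group apart was in the fit. With the level of the hybridization controls, 0 of 9 probe sets were called by limma. Tnnt2 differed by 0.06 ± 0.15 (adjusted p = 0.88), Tnni3 by -0.05 ± 0.13 (adjusted p = 0.89) and Tpm1 by -0.79 ± 0.29 (adjusted p = 0.15). With the 18S level, the same 3 differences were 0.35 ± 0.15, 0.21 ± 0.14 and -0.38 ± 0.26, and 0 of 9 were called. Without a covariate the 3 standard errors were 0.10, 0.09 and 0.17, so the covariates widened them. Calls over all tested probe sets also fell, from 1619 to 144 and 142. Under quantile normalization Tnnt2 differed by 0.08 (adjusted p = 0.41) and Tnni3 by -0.05 (adjusted p = 0.58). The alpha-tocopherol and old control arrays do not overlap in the hybridization controls or in 18S, so supplement and array measures cannot be told apart in this comparison. The highest intensity per array also reached further up, at 146634 to 275793 with alpha-tocopherol and 129966 to 151293 in old controls. Tnnt2 and Tnni3 lie near the bright end of the array, and the part of this stretch in their differences was not tested.

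Some other heart muscle transcripts also rose in the alpha-tocopherol group. Of 13 tested heart muscle markers 5 rose (Cox6a2, Myl2, Tcap, Myl3 and Mb) and 0 fell, against 8.94% of all tested probe sets called higher. The median difference of the 13 markers was 0.17, against -0.02 over all tested probe sets. Their summed intensity was 825600 to 1006854 with alpha-tocopherol and 681785 to 817974 in old controls. Markers not called included Mybpc3 at -0.0021 and Csrp3 at 0.02. Under quantile normalization Mybpc3 was -0.24 and called lower (adjusted p = 0.037, limma). Of 11 skeletal muscle markers 3 rose and 1 fell, with a median of 0.37. Of 11 fibroblast markers 5 fell and 1 rose, and of 10 macrophage markers 5 fell, against 12.8% of all tested probe sets called lower. The part of cell makeup in the troponin differences was not tested.

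The remaining genes were not called with alpha-tocopherol. The fetal troponin I gene Tnni1 had 2331, 2978, 2492, 2429 and 1524 with alpha-tocopherol, against 1547, 1635, 2051, 2043 and 1215 in old controls. Apart from replicate 5, which lay below 4 of the 5 old controls, the supplemented hearts lay above every old control. Its difference was 0.45 ± 0.17 (adjusted p = 0.064, limma), and 0.59 (adjusted p = 0.013) without supplemented replicate 5. It also passed without old control 3 (0.52, adjusted p = 0.043).

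Troponin C, the calcium sensor, had intensities of 84689.8, 86964, 94845, 82794 and 75536 with alpha-tocopherol, against 76352, 80796, 37079, 71233 and 74955 in old controls. The groups overlapped through old controls 1 and 2, and old control 3 was far below the others. The difference of Tnnc1 was 0.37 ± 0.16 (adjusted p = 0.10, limma), and 0.16 without old control 3. Tnnt1 differed by -0.22 ± 0.10 (adjusted p = 0.13) on Tnnt1 (at) and by 0.08 ± 0.26 (adjusted p = 0.86) on Tnnt1 (s_at). Actc1 differed by 0.02 ± 0.11 on Actc1 (i_at) and 0.12 ± 0.10 on Actc1 (f_at), while under quantile normalization Actc1 (i_at) was -0.22 and passed as lower (adjusted p = 0.045, limma).

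With alpha- and gamma-tocopherol together, slow skeletal troponin T was the 1 of the 7 genes with a called difference, in the direction opposite to age. On Tnnt1 (at) the supplemented hearts had 1556, 1581, 2118, 1797 and 1802, against 2448, 2533, 2266, 2318 and 2343 in old controls. Each supplemented heart lay below each old control, and 2 of them lay within the range of the young controls. The difference was -0.42 ± 0.10, or 1.34-fold lower (adjusted p = 0.019, limma), 1 of 9 probe sets against 6.43% of all tested probe sets (2.67% higher, 3.76% lower, and 8.32% with no overlap between groups). The age comparison uses the same 5 old controls, so the age difference of 0.62 and this one are not independent of each other.

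The other Tnnt1 probe set did not pass: Tnnt1 (s_at) had 815, 1688, 2591, 1142 and 1500.3 with both tocopherols, against 1562, 2213, 1564, 1828 and 1754 in old controls. The supplemented values were scattered on both sides of the old controls. Its difference was -0.29 ± 0.26 (adjusted p = 0.55, limma). The call on Tnnt1 (at) was lost without supplemented replicate 1 (-0.38, adjusted p = 0.053), without supplemented replicate 2 (-0.39, adjusted p = 0.051), without old controls 1 and 4 (-0.42, adjusted p = 0.082) and with the hybridization controls in the fit (-0.41, adjusted p = 0.059). Of 6 genes in the atrial list 1 fell (Myl4), with a median of -0.33, and with the atrial level as a covariate the Tnnt1 difference was -0.50 ± 0.12 (adjusted p = 0.025).

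Cardiac actin was lower with both tocopherols on each probe set without passing. On Actc1 (i_at) the supplemented hearts had 66577, 78393, 76938, 67919 and 62535, against 97057, 87979, 96380.1, 75191 and 80052 in old controls. Old control 4 was the only one within the supplemented range. The difference was -0.31 ± 0.11 (adjusted p = 0.097, limma), and -0.23 ± 0.10 (adjusted p = 0.17) on Actc1 (f_at). Under quantile normalization both passed, at -0.32 (adjusted p = 0.019) and -0.23 (adjusted p = 0.019).

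Tnni1 had 1820.4, 2078, 2773, 2606 and 2294 with both tocopherols, a difference from old controls of 0.44 ± 0.17 (adjusted p = 0.12, limma). Old controls 3 and 4 lay within this range and the other 3 below it. Tpm1 differed by -0.34 ± 0.17 (adjusted p = 0.22), Tnnc1 by 0.26 ± 0.16 (adjusted p = 0.35), Tnnt2 by 0.03 ± 0.10 and Tnni3 by -0.08 ± 0.09.

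The supplements were also set against each other. Both diets held the same total of tocopherol for the same time, but the alpha-tocopherol dose was 500 mg/kg in the mixture and 1000 mg/kg alone, so a lower alpha dose and the added gamma form cannot be told apart. Of the 9 probe sets, 0 were called by limma, against 0.564% of all tested probe sets. An unadjusted p under 0.05 was found for 4 of 9, and the share of all tested probe sets under that looser threshold was not computed. The cardiac troponin I gene was nearest: Tnni3 had 101253, 108998, 112124, 96267 and 86122 with the mixture, against 126979, 125309.7, 138089, 127854 and 119506 with alpha-tocopherol alone. All mixture hearts lay below all alpha-tocopherol hearts, which 3.9% of all tested probe sets also showed in one direction or the other. The difference was -0.34 ± 0.09 (95% interval -0.52 to -0.16, adjusted p = 0.064, limma).

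The other probe sets with an unadjusted p under 0.05 were Actc1 (f_at) at -0.35 ± 0.10 (95% interval -0.56 to -0.14, adjusted p = 0.093, limma), Actc1 (i_at) at -0.32 ± 0.11 (adjusted p = 0.16) and Tnnt2 at -0.30 ± 0.10 (95% interval -0.49 to -0.10, adjusted p = 0.13). For the slow skeletal forms the supplements could not be told apart within wide limits: Tnni1 differed by -0.01 (95% interval -0.36 to 0.35) and Tnnt1 (at) by -0.20 (95% interval -0.42 to 0.01). Tnnc1 differed by -0.11 (95% interval -0.44 to 0.22) and Tpm1 by 0.19 (95% interval -0.16 to 0.54). Under quantile normalization the difference of Tnni3 shrank to -0.07, and without young control 3 and old control 3 it passed (-0.34, adjusted p = 0.032).

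The order of the group means shows how the genes divided. Tnnt1 (at) averaged 10.83 ± 0.17 (SD, log2) with both tocopherols, 11.03 ± 0.16 with alpha-tocopherol, 11.25 ± 0.06 in old controls and 10.63 ± 0.08 in young controls. From high to low this ran old controls, alpha-tocopherol, both tocopherols and young controls, and each neighbour overlapped the next. Tnni3 averaged 16.62 ± 0.15 with both tocopherols, 16.96 ± 0.08 with alpha-tocopherol, 16.70 ± 0.17 in old controls and 16.66 ± 0.11 in young controls. The alpha-tocopherol group had the highest mean for Tnnt2, Tnni3, Tnnc1, Tnni1, Tnnt1 (s_at) and both Actc1 probe sets, and the lowest for Tpm1. Its lead over old controls was as little as 0.02 for Actc1 (i_at). For Tnni1 its mean was 11.203, against 11.196 with both tocopherols, and that order turned in 7 of 26 alternatives. Against old controls, Tnni3 and both Actc1 probe sets turned in sign under quantile normalization.

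**Figure D3:**
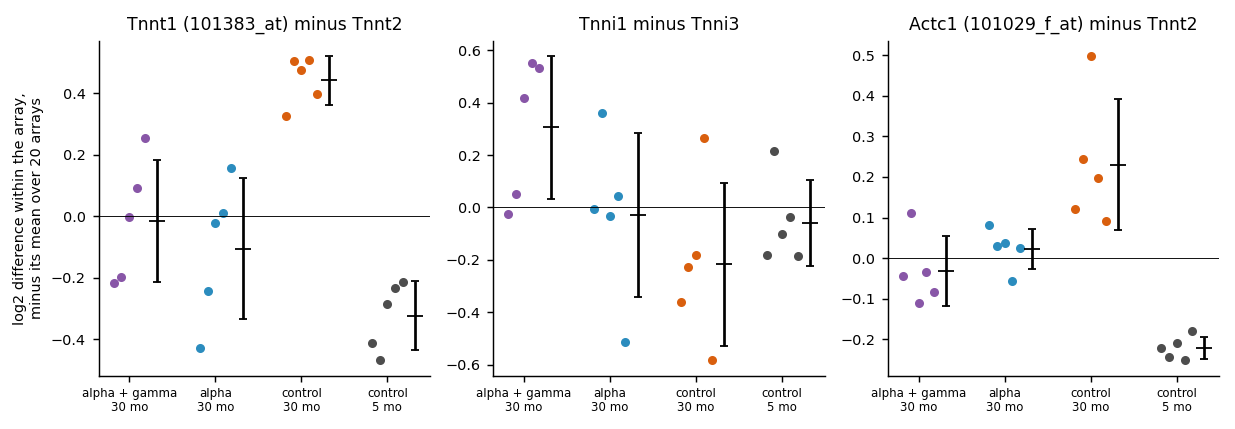
Differences within each array between log2 values of 2 thin filament probe sets, relative to the mean over all 20 arrays, for each animal by group, with the group mean ± SD in black. For Tnnt1 (at) minus Tnnt2 all 5 old controls lay at 0.33 to 0.51, above every animal of the other groups, whose highest value was 0.25. The share of other probe set pairs with such a separation was not computed.

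The balance of slow skeletal to cardiac forms was followed within each array, relative to the mean of all 20 arrays, as a description. How often other pairs of probe sets separate groups in such a way was not computed. Tnnt1 and Tnnt2 each had called differences that involved the same old controls, so their balance is not separate evidence. The difference of Tnnt1 (at) minus Tnnt2 was -0.22 to 0.25 with both tocopherols, -0.43 to 0.16 with alpha-tocopherol, 0.33 to 0.51 in old controls and -0.47 to -0.22 in young controls. On this probe set the old controls did not overlap any other group. With Tnnt1 (s_at) in its place the balance was -0.67 to 0.71 with both tocopherols, -0.23 to 0.74 with alpha-tocopherol, 0.13 to 0.74 in old controls and -1.61 to -0.23 in young controls, and the old controls stood apart from the young controls only. For the troponin I pair, Tnni1 minus Tnni3 was -0.03 to 0.55 with both tocopherols, -0.51 to 0.36 with alpha-tocopherol, -0.58 to 0.26 in old controls and -0.18 to 0.22 in young controls, and all groups overlapped. Cardiac actin minus cardiac troponin T, Actc1 (f_at) minus Tnnt2, was -0.11 to 0.11 with both tocopherols, -0.06 to 0.08 with alpha-tocopherol, 0.09 to 0.50 in old controls and -0.25 to -0.18 in young controls. The young controls were narrow and lay below all other animals in that balance. Troponin C minus cardiac troponin I (Tnnc1 minus Tnni3) was 0.002 to 0.31 with both tocopherols and -0.15 to -0.02 with alpha-tocopherol. In old controls it was -1.26 to 0.13, with old control 3 lowest, and in young controls 0.01 to 0.29.

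The rest of the thin filament was read from a list of 38 other actin, tropomyosin, troponin and actin-associated genes with some of their regulators, of which 25 were on the array and 23 passed the filter. With age 3 rose and 1 fell, against 2.74% of all tested probe sets called higher and 2.2% lower. The list median was 0.06, against 0.01 over all tested probe sets. Tpm4, a tropomyosin of the cytoskeleton, rose most clearly, with 7649.7 to 11025 in old controls and 4125 to 5077 in young controls (0.91 ± 0.13, adjusted p = 0.00021, limma). Cytoplasmic gamma-actin Actg1 rose by 0.61 ± 0.13 and smooth muscle gamma-actin Actg2 by 0.46 ± 0.13. Nrap, which anchors actin at the ends of heart muscle cells, had 9828 to 11194 in old controls and 12429.8 to 19836 in young controls (-0.71 ± 0.12, adjusted p = 0.0011). Neither Tpm4 nor Nrap overlapped between these groups, which was also so for 7.02% of all tested probe sets.

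In the alpha-tocopherol comparison 3 of the 23 genes rose and 8 fell, against 8.94% of all tested probe sets called higher and 12.8% lower. The list median was -0.00, against -0.02 over all tested probe sets. Muscle cofilin Cfl2, which severs actin filaments, fell by 0.96 ± 0.16 (adjusted p = 0.00025, limma), with 1684 to 3702 in supplemented hearts and 4515 to 5849 in old controls. Skeletal alpha-actin Acta1 fell by 1.13 ± 0.33, smooth muscle alpha-actin Acta2 by 0.65 ± 0.17, Actg1 by 0.48 ± 0.13, Tpm4 by 0.48 ± 0.13 and the filament cap Tmod3 by 0.40 ± 0.09. Cytoplasmic beta-actin Actb rose by 1.21 ± 0.25 and Tpm3, the tropomyosin of slow muscle, by 0.36 ± 0.10. Nrap also rose, by 0.38 ± 0.12 (adjusted p = 0.027, limma). Quantile normalization and median centring also gave 3 higher and 8 lower, while with the hybridization controls in the fit 1 rose and 0 fell, and with the 18S level 0 of 23 were called by limma. Actins share much of their sequence, and binding of one actin's RNA to the probes of another was not tested.

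With both tocopherols 1 of these 23 rose and 3 fell, against 2.67% of all tested probe sets called higher and 3.76% lower. The list median was -0.04, against -0.01 over all tested probe sets. Nrap had 12661.5 to 19225 in supplemented hearts and 9828 to 11194 in old controls (0.48 ± 0.12, adjusted p = 0.020, limma). Tpm4 fell by 0.60 ± 0.13 (adjusted p = 0.012), with 4182 to 7392 in supplemented hearts, and Acta2 fell by 0.65 ± 0.17 and Actg1 by 0.46 ± 0.13. With the hybridization controls in the fit 0 rose and 1 fell. Both supplement comparisons and the age comparison share the old controls, so these values stand side by side and are not separate evidence. Between the supplements 0 of 23 were called by limma, also under quantile normalization and median centring.

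**Figure D4:**
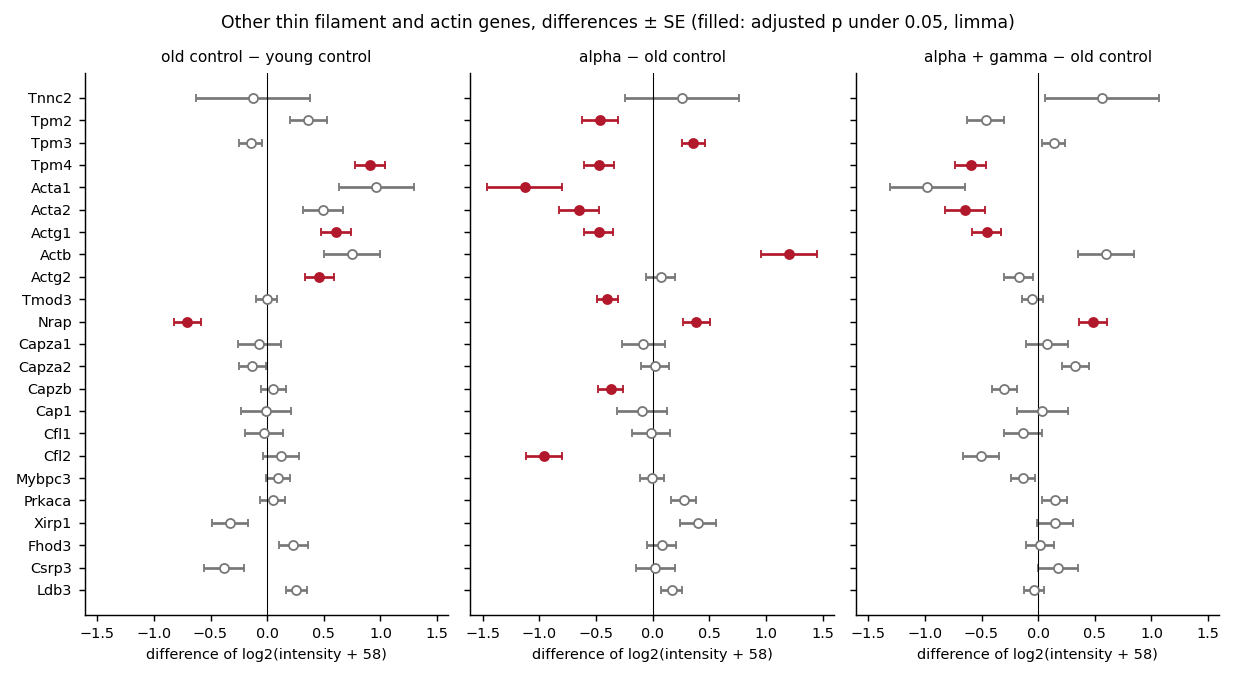
Differences of log2(intensity + 58) for the 23 other genes in 3 comparisons, 1 line per gene, with standard errors as bars and called values filled. Tpm4 was 0.91 with age, -0.48 with alpha-tocopherol and -0.60 with both tocopherols. Nrap was -0.71 with age, 0.38 with alpha-tocopherol and 0.48 with both tocopherols. All of these values were measured with the same old controls.

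How the 7 genes varied from animal to animal was described after group means were removed, over 20 arrays, which share the authors' scaling. Among the cardiac forms Tnnt2, Tnni3 and Actc1, r was 0.80 for Tnnt2 with Actc1, 0.77 for Tnni3 with Actc1 and 0.51 for Tnnt2 with Tnni3. Tnnc1 had r = 0.61 with Tnnt2, 0.22 with Actc1 and -0.04 with Tnni3. Tnnt1, Tnni1 and Tpm1 had r between -0.32 and 0.38 with every other gene of the 7.

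The named genes nearest to each of the 7 were found by the same measure. Tnni3 was nearest to Uqcrq (r = 0.93) and Cyc1 (0.89), subunits of respiratory complex III, Tnnt2 to Actc1 (0.80) and Sdhb (0.79), and Actc1 to Tpt1 (0.89) and Gcdh (0.88). Tnnc1 was nearest to Csrp3 (0.95), a muscle LIM protein, and Pkm (0.93), and without old control 3 these were 0.88 and 0.83. Tnnt1 was nearest to Samm50 (0.81) and Spr (0.79), Tpm1 to Cpne6 (0.81) and Lrrfip2 (0.79), and Tnni1 to Zfp639 (0.82) and Mrps28 (0.78). With group means kept, Tnnt1 was nearest to Cmc2 (0.84) and Fhl2 (0.83), and Tnnt2 to the ventricular light chain Myl2 (0.84) and Cox6a2 (0.83).

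**Figure D5:**
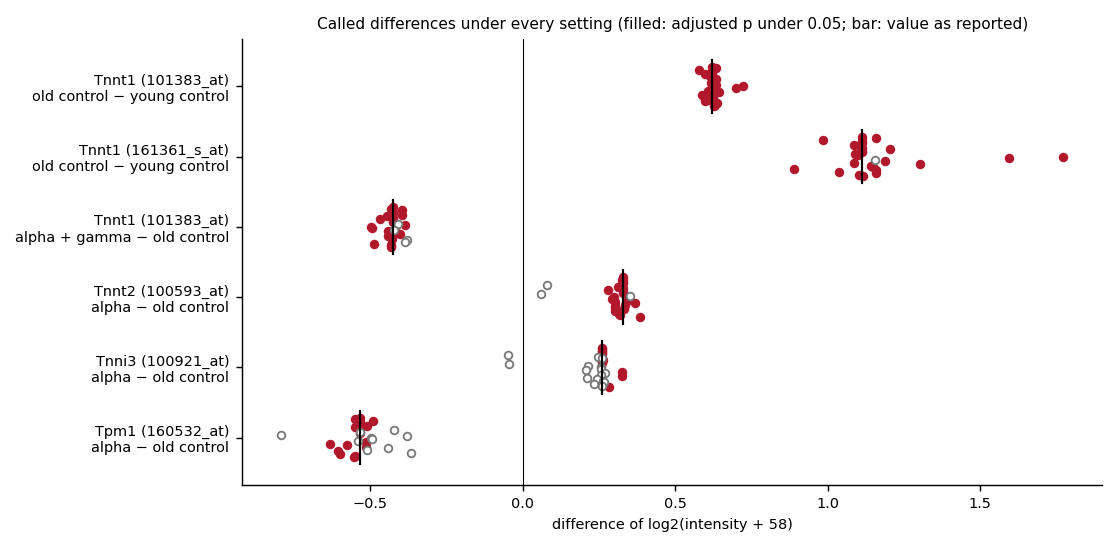
Log2 differences of the called thin filament results under every setting; each point is 1 setting, filled where called, and the vertical bar is the value as reported. The age difference of Tnnt1 (at) was called in every setting, between 0.58 and 0.72, while the alpha-tocopherol difference of Tnni3 ran from -0.05 to 0.33.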

How the data were processed

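Per the labels' protocols, RNA from frozen hearts was selected on oligo-dT, copied and labelled with biotin, with 1 array per animal. The deposited values are linear intensities made by the authors, 1 per probe set and array. Their trimmed means (2% off each end) were 1501.0 to 1501.1 on all arrays, so the authors scaled the arrays to a common level. The software was not given in the sources used here, and no detection calls were used.

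From these intensities, log2(intensity + 58) was taken, which understates folds of dim probe sets. Left out were 66 control probe sets and, by mean level, the lowest 40% of the rest. The 4 group means were fitted to all 20 arrays in R 4.3.3 by limma 3.58.1, whose eBayes step used a variance trend and robust estimation, on 16 residual degrees of freedom. P-values are two-sided, with Benjamini-Hochberg adjustment over 7453 probe sets and calls below 0.05. The number of arrays limits the precision, with a median standard error of 0.179 for a difference. The fit was tested on simulated data.

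The 7 genes and the gene lists were chosen with earlier results of these data known. Of the other thin filament genes, at most the 8 called ones of smallest p were named per comparison, each by its tested probe set of highest mean. Nrap with alpha-tocopherol was added to these, beside its value with both tocopherols. The 2 named genes of highest r were given for each gene. Alternatives were other pseudocounts, filters, scalings and fits, a replicate block, and each animal left out. Also run, and chosen with earlier results known, were the omission of old controls 1 and 4 or of young control 3 with old control 3, and covariates for hybridization controls and 18S. Atrial marker covariates, with and without Myl1, were chosen after seeing the data.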

Additional observations from a re-analysis of the deposited data

Results flagged for a closer look

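In 4 of 36 pairs of a probe set and a group, 1 animal lay far from the other 4 of its group, by a gap over the critical share of 0.71 of the group's range. Chance gives about 1 such case in 20 pairs. Tnnt2 in alpha-tocopherol replicate 5 was the lowest of its group at 87444 (gap 0.798 of the range), and Actc1 (i_at) was also lowest in that animal, at 67261 (0.753). Tnnc1 in old control 3 was lowest at 37079 (0.838). Tpm1 in alpha-tocopherol replicate 2 was lowest at 853 (0.762).

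Outside the genes, the hybridization controls, added to every sample, were higher on the alpha-tocopherol arrays than on those of old controls by 0.85 (log2), and 18S ribosomal RNA was higher by 1.66.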

How the results depend on the processing

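Each difference was recomputed under 26 alternatives, and over the 36 differences 851 recomputed values kept their direction and their side of the threshold, 32 lost the call, 19 gained it and 34 changed sign. The age difference of Tnnt1 (at) was called under every alternative run (adjusted p at most 0.012, limma). The cause of the changes below was not tested, and smaller shifts in the counts are not all listed. Actc1 (f_at) with age was called with quantile normalization, array weights, the replicate block and the hybridization covariate. Called probe sets with age were 4 rather than 2 of 9 with quantile normalization and 1 without old controls 1 and 4 (2 each time with 1 animal left out). With alpha-tocopherol they were 3 as reported, 0 with the hybridization or 18S covariate and 1 with the atrial covariate (with or without Myl1) or without old controls 1 and 4 (1 to 4 with 1 animal left out, and 1 without old control 4, old control 5 or supplemented replicate 2). With both tocopherols they were 1 as reported, 3 with quantile normalization or array weights, 2 with the hybridization covariate and 0 without old controls 1 and 4 (0 to 1 with 1 animal left out). Between the supplements they were 0 as reported and 1 without young control 3 and old control 3 (0 each time with 1 animal left out).

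Signs changed as follows. With age, Tnni3 was -0.061 without young control 3 and old control 3, and -0.020 to 0.093 with 1 animal left out. With alpha-tocopherol, quantile normalization gave -0.049 for Tnni3, -0.22 for Actc1 (i_at), then called as lower (adjusted p = 0.045, limma), and -0.14 for Actc1 (f_at), and the hybridization covariate gave -0.046, -0.28 and -0.22. Tnnt1 (s_at) was -0.041 with the 18S covariate and -0.20 with the atrial one (-0.19 without Myl1), and Actc1 (i_at) was -0.020 with array weights, -0.061 with 18S, -0.0060 with the atrial covariate (-0.012 without Myl1) and -0.035 to 0.11 with 1 animal left out. With both tocopherols, Tnnt2 was -0.035 with array weights, -0.057 with the hybridization covariate, -0.017 with the atrial one (-0.024 without Myl1) and -0.029 to 0.091 with 1 animal left out. Between the supplements, Tnnc1 was 0.094 with quantile normalization and 0.069 with the hybridization covariate, and Tnni1 was 0.0078 with array weights, 0.089 with the hybridization covariate and -0.15 to 0.085 with 1 animal left out.

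Over all tested probe sets, calls with age were 368, against 731 with array weights, 147 with the atrial covariate (211 without Myl1) and 150 without old controls 1 and 4. With alpha-tocopherol they were 1619, against 144, 142 and 981 with the hybridization covariate, the 18S covariate and without old controls 1 and 4. With both tocopherols they were 479, against 858 with array weights, 242 with the hybridization and 230 with the atrial covariate (226 without Myl1), and 162 without old controls 1 and 4; leaving out 1 animal gave 263 without supplemented replicate 1, 299 without replicate 2 and 300 without old control 5. Between the supplements they were 42, against 0 to 79.

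Replicate numbers are only sample numbers in the labels. Same-numbered animals had residual correlations of -0.08 to 0.10, so the numbers were not taken to pair them. With the replicate block, Actc1 (f_at) with age was 0.31 (adjusted p = 0.031, limma) and Tnni1 with alpha-tocopherol was 0.45 (adjusted p = 0.043), both then called, and the block changed no other call of the 9 probe sets.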
